A study of Monodelphis domestica and Mus musculus with 26 samples.

Results

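Germ cells of the testis rely on RNA-binding proteins because many messages are made early, stored, and spliced or translated later, and because transcription stops when spermatids compact their DNA. The set described here has 10 genes for germ-cell RNA-binding proteins: the DAZ-family genes DAZL and BOLL, the cold shock gene YBX2, the cytoplasmic polyadenylation factor CPEB1, the ELAV genes ELAVL2 and ELAVL4, the Musashi gene MSI2, the IGF2 message-binding gene IGF2BP1, and the splicing regulators MBNL1 and PTBP2. They were matched by symbol, whatever the case of the letters, in the gene names of the single-cell and bulk files, and all 10 were found among 32532 mouse features. In opossum 8 were found among 32251 features, of which 11523 carry a name. DAZL and CPEB1 were not found there by name, and their opossum levels are not analysed here. The set was chosen by the members' measured single-cell levels, ELAVL4 and MBNL1 for a difference between the species, so every difference between species given for the members is a description without a test. Each species was counted over its own annotated genes, so species and annotation cannot be told apart in these differences.

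As background, DAZL and BOLL bind the 3′ ends of messages and promote translation, DAZL in early germ cells and BOLL around the meiotic divisions, and YBX2 packs and stores messages in meiotic and later cells. CPEB1 controls the length of poly(A) tails, ELAV proteins stabilise AU-rich messages, and Musashi proteins regulate translation. PTBP2 and MBNL1 shape alternative splicing, PTBP2 in germ cells and neurons and MBNL1 in muscle and many other tissues.

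The series holds 26 testis samples, with no genotype or treatment named for any. Single-cell RNA sequencing (10x Genomics Chromium, a droplet assay that counts molecules) was made from 3 samples of adult C57BL6/J mice aged 8 to 16 weeks and 3 samples of the gray short-tailed opossum, Monodelphis domestica, a marsupial whose strain is not given. No age in weeks or months is recorded for these opossum samples. Bulk RNA sequencing was made from 20 opossum samples: 2 at 1 month, 4 at 2 months, 4 at 3 months, 3 at 4 months and 7 adults. Of these 16 were polyA-selected and 4 were rRNA-depleted (replicates 2 to 4 of 2 months and adult replicate 2). Testes were dissociated with collagenase and trypsin, also for RNA isolation. The labels number the replicates without saying whether they are separate animals, so p-values measure the spread between these samples, which may be technical.

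Single-cell levels are in CPM: the estimated molecules (UMIs) of a gene, divided by all UMIs of the same class of cells in the same library, times 1000000. Between 7208 and 8714 cells per library passed the filters in mouse and between 5126 and 7476 in opossum, with median depths of 2750 to 4447 and 1620 to 2292 UMIs. At most 198 barcodes were shared by 2 libraries (mouse replicates 1 and 2). Mouse replicate 3 and the opossum libraries shared 30 to 43 by pair, but mouse replicates 1 and 2 shared at most 2 with any of these. No opossum library falls with mouse replicates 1 and 2, and the cause of this split was not tested. Clusters were made without the members and named from markers, of which 16, 24, 12 and 14 were found in opossum for spermatogonia, spermatocytes, round and elongating spermatids, against 30, 40, 30 and 30 in mouse. No opossum cluster of these 4 classes had its own markers among its 10 leading genes, so the opossum names rest on weaker ground, and ELAVL4 was itself among the 10 leading genes of the opossum spermatogonia cluster. The 12 round spermatid markers summed to 1456, 2048 and 1422 CPM in opossum round spermatids, but to 2662, 2917 and 2333 in elongating spermatids. Opossum spermatocytes had 1276, 1247 and 1285 CPM of them. In mouse the 30 markers had 15150 to 17860 CPM in round spermatids and at most 11290 in the classes before and after. Opossum clusters 1 and 20 (1931 and 234 cells) scored highest for Sertoli cells but are called by number here. They passed 3 and 4 of the 9 Sertoli markers found, with none among their leading genes. Cluster 1 had ALAS2, a gene of heme synthesis in red cells, among its 10 leading genes and shared 6 of them with the unnamed cluster 2, which was led by the globin gene HBE1. The 16 spermatogonia markers summed to 5304, 3734 and 3621 CPM in clusters 1 and 20 together, beside 4275, 3792 and 5018 CPM in spermatogonia. The spermatocyte classes hold different steps: mid and late in mouse (clusters 12 and 13, and 6 and 10), early and late in opossum (cluster 6, and 3 and 15). Mouse cluster 9, of 1305 cells, scored highest for spermatocytes, with 25 of their 40 markers passed. It stayed unnamed because its 10 leading genes held 2 spermatogonia markers, Stra8 and Prss50, and 1 spermatocyte marker, Dmc1. The values of cluster 9 are given beside the members' values in spermatocytes.

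Among the 4 germ-cell classes, 6 of 10 members had their highest mouse mean in spermatogonia (DAZL, CPEB1, ELAVL2, MSI2, MBNL1 and IGF2BP1), and 4 of 8 had their highest opossum mean there (ELAVL2, ELAVL4, MSI2 and PTBP2). BOLL was highest in spermatocytes in both species. These rankings leave out the unnamed mouse cluster 9. Its means, given below, were above those of spermatogonia for DAZL, CPEB1 and MBNL1 and above those of spermatocytes for BOLL and PTBP2. All of these but that of DAZL exceeded the class mean by less than the SD of the class. Of the 8 members found in both species, 6 did not overlap between the libraries of mouse and opossum in spermatogonia, 3 being higher and 3 lower in opossum. Over all 10403 matched genes, 58.5% did not overlap in that class, 30.2% higher and 28.3% lower. In spermatocytes 6 did not overlap (4 higher, 2 lower; all genes 68.1%, 44.6% higher and 23.5% lower), in round spermatids 6 (3 and 3; all genes 61.8%, 35.1% and 26.7%) and in elongating spermatids 5 (3 and 2; all genes 57.9%, 39.9% and 18.0%). The elongating spermatid count was 3 with a finer clustering (Leiden resolution 2; 1 higher, 2 lower) and 4 with a minimum of 2000 UMIs per cell (1 higher, 3 lower), so its direction depends on the setting. With a minimum of 500 UMIs 4 did not overlap in spermatocytes (2 higher, 2 lower), and with counts rounded up 4 in spermatogonia (3 higher, 1 lower).

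**Figure D1:**
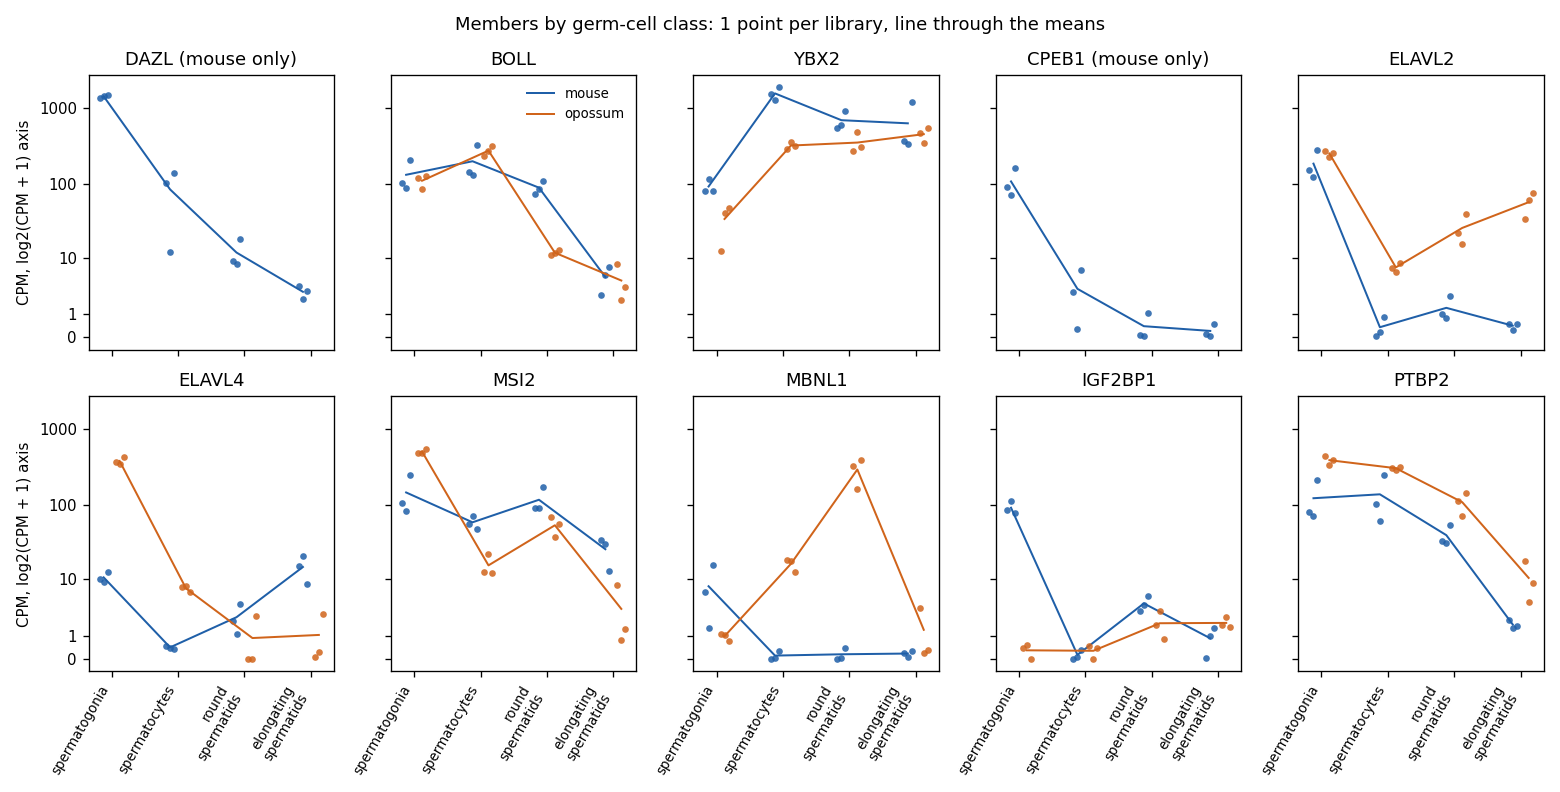
Level of each member by germ-cell class, in CPM on a log2(CPM + 1) axis, with 1 point per library (3 mouse in blue, 3 opossum in orange) and lines through the means. ELAVL4 is high in opossum spermatogonia (349.6 to 432.2 CPM) and MBNL1 in opossum round spermatids (165.7 to 390.0 CPM), where the mouse libraries reach at most 12.7 and 0.400 CPM.

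ELAVL4 encodes HuD, best known from neurons. In opossum spermatogonia it stood at 368.1, 349.6 and 432.2 CPM in replicates 1 to 3, and in mouse spermatogonia at 9.92, 9.19 and 12.7 CPM. Each opossum library was above every mouse library. The means, 383.3 ± 43.4 and 10.6 ± 1.87 CPM (SD, n = 3 per species), differ by 5.05 in log2(CPM + 1) with a combined SD of 0.276, and the difference lay between 4.91 and 5.68 in the other settings tried. The mouse values rest on few molecules, 20.8, 5.16 and 26.9 estimated UMIs, and the opossum values on 614.2, 923.2 and 395.4.

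In opossum between 87.2% and 96.6% of the ELAVL4 UMIs of a library came from spermatogonia. Spermatocytes had 7.69, 7.84 and 6.52 CPM, round spermatids at most 2.62 and elongating spermatids at most 2.90 CPM, and the means of the Leydig, peritubular or stromal, endothelial and immune classes ran from 1.27 to 1.92 CPM. Mouse ELAVL4 had another order. Its highest mean was in elongating spermatids, with 15.3, 20.8 and 8.61 CPM, and these libraries overlapped with those of spermatogonia. Mouse spermatocytes had 0.358 to 0.498 CPM, cluster 9 had 10.6 and round spermatids 1.121 to 4.29 CPM. Elongating spermatids held 38.5% to 83.0% of the mouse UMIs of the gene, and spermatogonia 2.64% to 13.2%.

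ELAVL2 encodes HuB, a paralog of HuD. It was high in spermatogonia of both species, at 152.0, 122.8 and 279.3 CPM in mouse and 272.6, 225.1 and 254.6 CPM in opossum, which overlap through mouse replicate 3. In later classes mouse ELAVL2 was at 0.0516 to 0.841 CPM in spermatocytes, 0.775 to 2.49 in round and 0.269 to 0.506 in elongating spermatids. Opossum ELAVL2 was at 6.17 to 8.34 CPM in spermatocytes, 15.5 to 39.98 in round spermatids and 34.2, 61.4 and 76.2 CPM in elongating spermatids. All opossum spermatid libraries were above all mouse ones, and elongating spermatids held 14.0% to 45.3% of the opossum UMIs of ELAVL2. In opossum the higher round spermatid cluster was 18, with 82.3 CPM, against 15.6 CPM in cluster 4. The spermatocyte difference turns on mouse cluster 9, which had 183.5 CPM of ELAVL2. With the unnamed clusters counted under their best-scoring class, a setting chosen after seeing the data, the mouse spermatocyte mean was 14.3 CPM and the log2 difference went from 2.59 to -0.90. With a minimum of 500 UMIs per cell it was -0.48.

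MBNL1 encodes muscleblind, a splicing regulator best known from muscle. In opossum round spermatids it had 334.5, 165.7 and 390.0 CPM, from 372.0, 617.9 and 471.8 estimated UMIs, and in mouse round spermatids 0.0141, 0.0407 and 0.400 CPM, from 0.279, 0.510 and 6.04 estimated UMIs. The species do not overlap. The mouse values are so near 0 that no fold is given. The name of the opossum class is less sure than in mouse, since its own markers were higher in opossum elongating spermatids, as given above. In opossum the class means were 0.979 CPM in spermatogonia, 16.5 in spermatocytes, 296.7 in round and 1.40 in elongating spermatids. Within round spermatids cluster 4 (1405 cells) had 355.5 CPM and cluster 18 (299 cells) 13.98 CPM, so the high level lay in cluster 4. The late spermatocyte clusters 3 and 15 had 31.99 and 6.61 CPM and the early cluster 6 had 5.89 CPM.

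MBNL1 was not restricted to the germ line in either species. Opossum immune cells had 554.7 ± 54.0 CPM and endothelial cells 294.7 ± 113.4 (SD, n = 3), and round spermatids held 20.5% to 29.1% of the UMIs of a library beside 28.7% to 32.4% in immune cells. In mouse, peritubular or stromal cells had 244.6 ± 128.0 CPM and Leydig cells 207.2 ± 51.0 (SD, n = 3). Mouse immune cells had 301.3 and 92.5 CPM in the 2 libraries with at least 20 such cells. Mouse Sertoli cells had 15.4, 0.00 and 229.9 CPM in replicates 1 to 3. The class holds different clusters by library: cluster 11, with 8.99 CPM, had 719, 157 and 107 cells, and cluster 19, with 306.7 CPM in the 1 library that gave a value, had 10, 0 and 105. Mouse germ cells had little: 6.48, 1.54 and 15.7 CPM in spermatogonia, at most 0.283 in spermatocytes, 9.67 ± 12.8 (SD, n = 3) in cluster 9 and at most 0.281 in elongating spermatids.

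**Figure D2:**
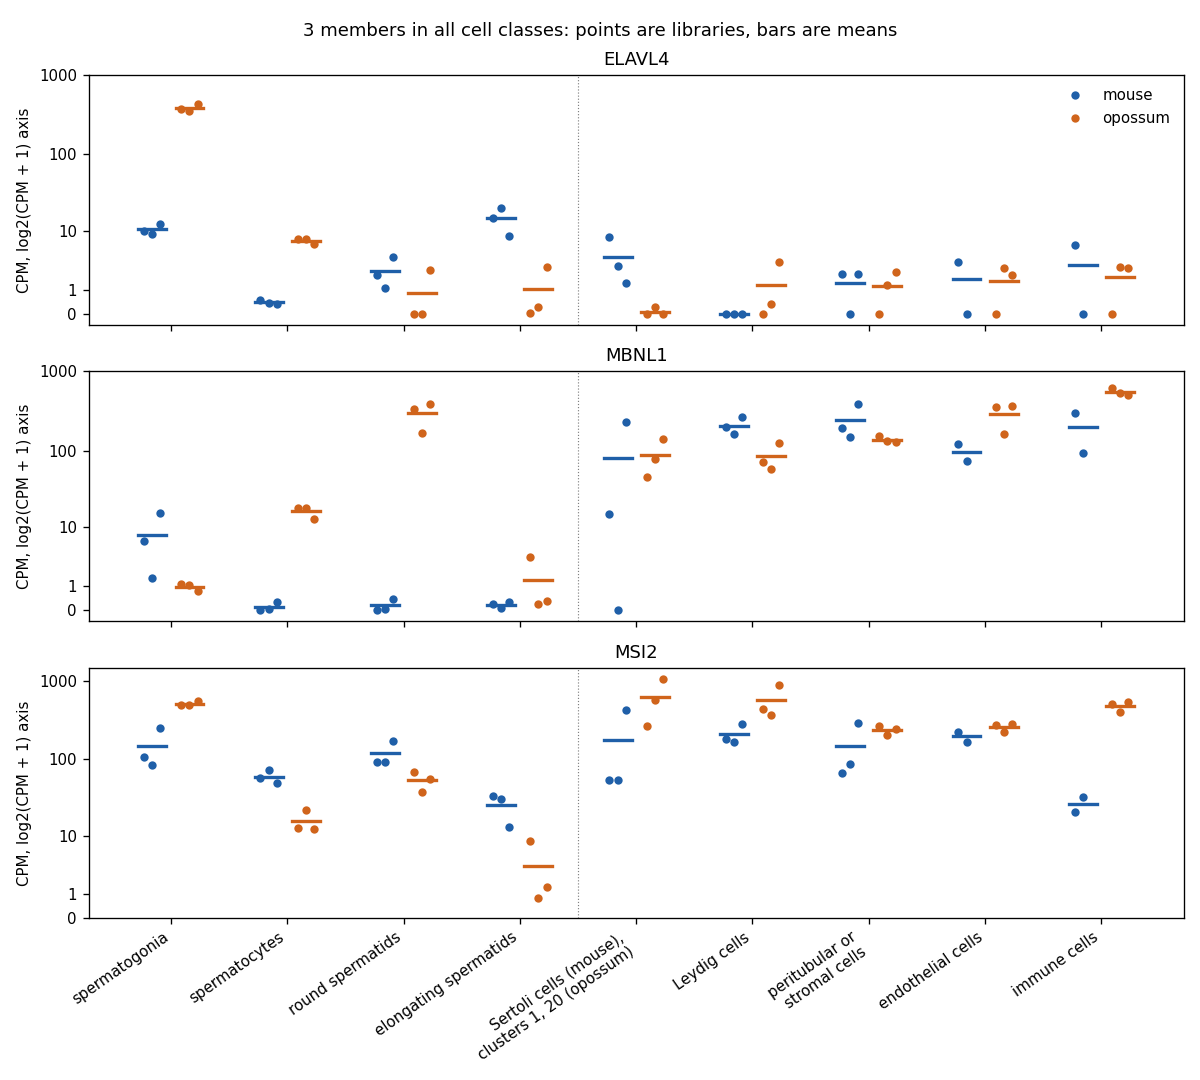
ELAVL4, MBNL1 and MSI2 in the 9 cell classes, in CPM on a log2(CPM + 1) axis; points are libraries with at least 20 cells of the class, bars are means, mouse in blue and opossum in orange, and the dotted line parts germ from somatic classes. MBNL1 is high in somatic classes of both species and in opossum round spermatids (mean 296.7 CPM), and opossum MSI2 has a mean of 559.4 CPM in Leydig cells beside 509.0 in spermatogonia; the opossum points of the fifth column are clusters 1 and 20, which have no cell type name.

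MSI2, the Musashi gene, was found in germ and somatic cells. In spermatogonia it had 108.3, 85.5 and 251.2 CPM in mouse and 492.0, 487.1 and 547.8 CPM in opossum, without overlap. In spermatocytes the order was the other way, with 57.5, 72.8 and 49.4 CPM in mouse and 12.5, 22.4 and 12.1 CPM in opossum. Round spermatids had 91.6 to 172.4 CPM in mouse and 38.4 to 69.5 in opossum, and elongating spermatids 13.2 to 34.3 and 0.764 to 8.32. Opossum MSI2 was thus high in spermatogonia and at 69.5 CPM or less in every later library. In mouse the spermatogonia and round spermatid libraries overlapped (means 148.3 and 118.9 CPM). Cluster 9 had 16.5 CPM. In mouse somatic classes the MSI2 means were 211.4 CPM in Leydig cells, 176.7 in Sertoli cells (54.8, 53.9 and 421.5 in replicates 1 to 3), 146.9 in peritubular or stromal, 196.2 in endothelial and 26.9 in immune cells, and the libraries of all but the immune cells overlapped with those of spermatogonia. In opossum they ran from 238.2 CPM in peritubular or stromal cells to 559.4 in Leydig cells, whose libraries (370.3 to 875.8 CPM) overlapped with spermatogonia. The clusters without a cell type name differed, with 1817 CPM of MSI2 in cluster 20 and 114.5 CPM in cluster 1.

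DAZL, an activator of translation in early germ cells, had 1333, 1423 and 1459 CPM in mouse spermatogonia. It had 103.1, 12.2 and 138.4 CPM in spermatocytes, 8.18 to 18.5 in round and 2.16 to 3.65 in elongating spermatids, so the spermatogonia stood above all later libraries. The unnamed cluster 9 had 1960 CPM. Among the spermatocyte clusters the mid clusters 12 and 13 had 221.5 and 57.2 CPM and the late clusters 6 and 10 had 7.49 and 5.81 CPM.

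CPEB1, which regulates stored messages through their tails, had 89.9, 71.2 and 162.4 CPM in mouse spermatogonia and 139.8 CPM in cluster 9. It had at most 6.69 CPM in spermatocytes and 1.09 CPM in spermatids. IGF2BP1, which stabilises its target messages, had 86.0, 113.2 and 80.7 CPM in mouse spermatogonia. It had 27.2 CPM in cluster 9, at most 0.322 in spermatocytes and 3.18 to 5.68 in round spermatids. In opossum IGF2BP1 was nearly without signal, at 0.380, 0.513 and 0.00 CPM in spermatogonia, and its highest class mean was 1.96 CPM in elongating spermatids. All kept opossum cells together held 45 estimated UMIs of it.

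BOLL, the DAZ-family gene of meiosis, had 145.4, 129.9 and 320.5 CPM in mouse spermatocytes and 232.8, 271.5 and 316.7 CPM in opossum spermatocytes. The species overlapped there, in spermatogonia (87.7 to 203.7 CPM in mouse, 84.6 to 127.5 in opossum) and in elongating spermatids (2.56 to 7.30 and 2.06 to 8.00). They did not overlap in round spermatids, with 73.3, 85.3 and 109.0 CPM in mouse and 11.0, 11.5 and 12.8 in opossum, a log2 difference of -2.82 with a combined SD of 0.305. By cluster, opossum BOLL had 378.9 CPM in the early spermatocytes and 197.1 and 60.1 in the late ones (3 and 15). Mouse BOLL had 231.2 and 344.6 CPM in the mid and 131.6 and 176.6 in the late clusters, and 238.6 in cluster 9.

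YBX2, which stores messages, had 1499, 1258 and 1842 CPM in mouse spermatocytes and 290.6, 353.7 and 312.6 CPM in opossum spermatocytes, without overlap. Mouse spermatogonia had 80.7 to 115.4 CPM and opossum spermatogonia 12.6 to 48.4. Mouse round spermatids had 544.8 to 907.7 CPM, and the highest mouse germ-cell cluster was the mid spermatocyte cluster 12 with 2271 CPM. In opossum the means of spermatocytes, round and elongating spermatids were 318.9, 349.0 and 449.7 CPM, and their libraries overlapped between neighbouring classes. The unnamed opossum cluster 14 had 1505 CPM and mouse cluster 9 had 304.0 CPM. Cluster 14 (635 cells) scored highest for elongating spermatids, with 9 of their 14 markers passed, but had a marker of another class among its leading genes. The opossum elongating spermatid mean leaves it out, and the unnamed clusters together held 7.91% to 40.5% of the opossum UMIs of YBX2. Elongating spermatids overlapped between species (330.1 to 1173 CPM in mouse, 347.8 to 535.3 in opossum).

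YBX2 was also counted in somatic classes, with means of 68.3 to 395.6 CPM in mouse and 63.8 to 197.7 in opossum. Transcripts of the elongating spermatid marker list (30 genes in mouse, 14 in opossum) were counted there too, at 1329 to 99270 CPM in all per mouse library with at least 20 cells of the class and at 52.9 to 7705 per opossum library. In opossum peritubular or stromal cells YBX2 was at 43.9, 169.3 and 379.9 CPM and these markers at 1411, 3564 and 7705 CPM in replicates 1 to 3. The part of such RNA in the somatic YBX2 values was not tested.

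PTBP2, the polypyrimidine tract-binding protein of germ cells and neurons, had 82.3, 72.2 and 219.2 CPM in mouse spermatogonia and 104.5, 62.0 and 254.2 in mouse spermatocytes. Opossum spermatogonia had 440.0, 341.9 and 397.4 CPM and spermatocytes 314.6, 290.6 and 320.9, above all mouse libraries of the same class. Round spermatids had 31.6 to 55.5 CPM in mouse and 71.6 to 144.9 in opossum, and elongating spermatids 1.55 to 2.23 and 4.56 to 17.9. The species thus did not overlap in any of the 4 classes, and in both the spermatid libraries were below the earlier ones. The early opossum spermatocyte cluster 6 had 437.7 CPM and the late clusters 3 and 15 had 198.5 and 106.3. Mouse cluster 9 had 189.3 ± 112.9 CPM (SD, n = 3). With the unnamed clusters counted, the log2 differences in spermatocytes were 1.09 for PTBP2 (1.13 without them), -1.82 for MSI2 (-1.87) and -2.14 for YBX2 (-2.26).

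Mouse replicate 3 was the highest mouse library in spermatogonia, by more than 1.5 times, for BOLL, CPEB1, ELAVL2, MSI2, MBNL1 and PTBP2. The elongating spermatid markers summed to 550.8 CPM in its spermatogonia and to 10630 and 11450 CPM in those of replicates 1 and 2; their part in the members' values was not tested. Without mouse replicate 3, 7 rather than 6 members did not overlap between species in spermatogonia. Leaving out a library can only keep or raise this count.

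**Figure D3:**
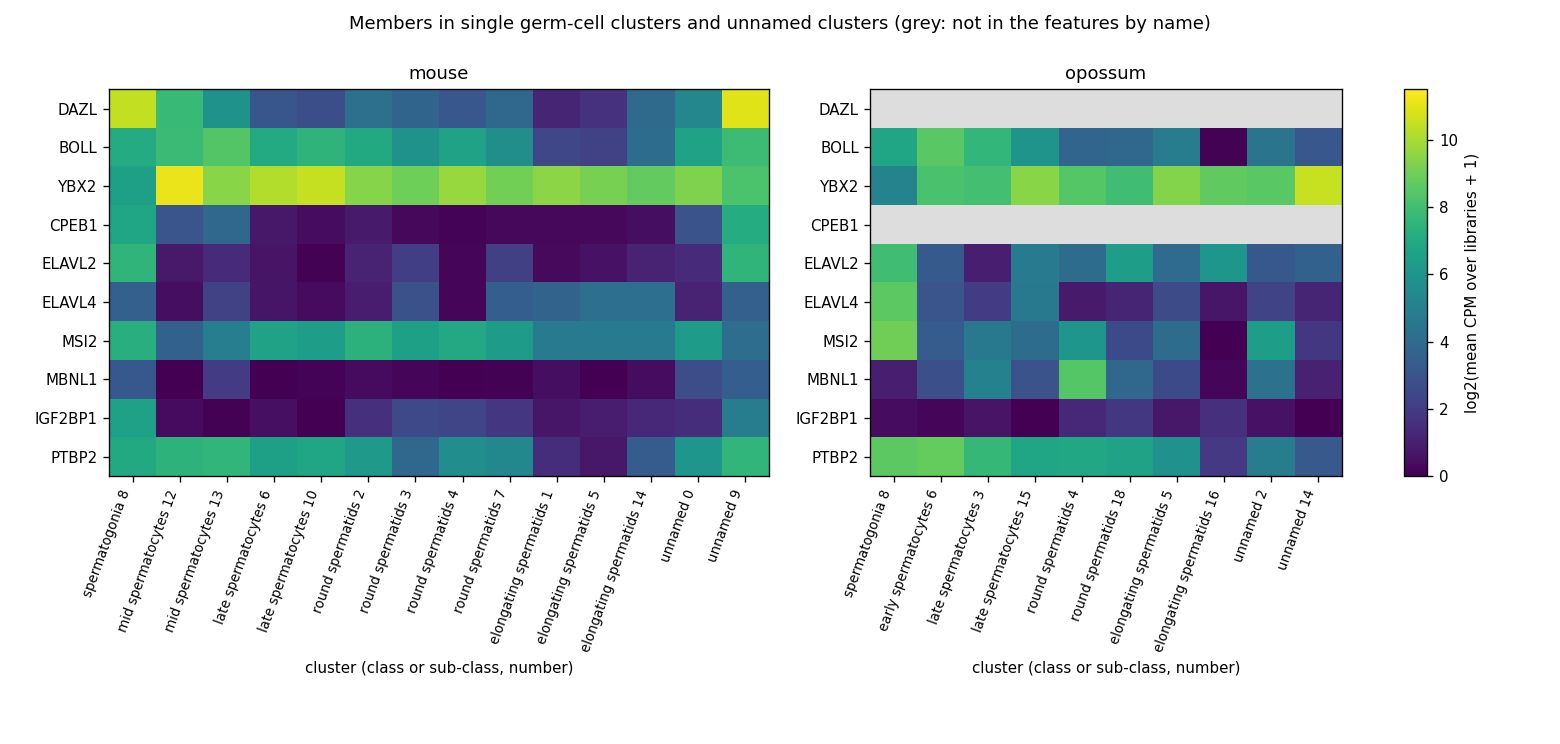
Members in the single germ-cell and unnamed clusters of each species, coloured by log2(mean CPM over libraries + 1); rows are genes, columns are clusters in the order of the classes, and grey means not found by name. DAZL and CPEB1 have 1960 and 139.8 CPM in mouse cluster 9 beside 1405 and 107.8 in spermatogonia, and opossum MBNL1 has 355.5 CPM in round spermatid cluster 4 and 13.98 CPM in cluster 18.

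In whole opossum testis the members could be followed over age. Bulk levels are in TPM, which takes gene length into account, so genes can be compared on it. In such samples fewer cells of a type and less RNA per cell cannot be told apart. Of the 8 members found by name, 6 reached at least 1 TPM in at least 2 libraries and were tested. IGF2BP1 did not (0.00 to 1.08 TPM), and YBX2 was listed at 0 in all 20 libraries, although the opossum single-cell libraries held 19297 estimated UMIs of it. In the 7 adult libraries the median levels were 40.3 TPM for ELAVL2, 36.3 for MSI2, 31.97 for PTBP2 and 31.4 for BOLL, whose ranges overlap, 14.1 for MBNL1 and 6.10 for ELAVL4. The range of MBNL1 (1.30 to 19.2 TPM) overlapped with those of ELAVL4 (1.55 to 9.68), ELAVL2, PTBP2 and BOLL, and that of ELAVL4 also with that of BOLL (from 7.97).

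Ages were compared with limma on log2(TPM + 1), with the library preparation as a term, over 19300 genes. A gene was called where its adjusted p was under 0.05 and its log2 difference at least 1 in size. From 1 to 2 months 2 of 6 members were called, both higher (all genes 11.1%, with 7.22% higher and 3.88% lower). From 2 to 3 months 3 were called, 1 higher and 2 lower (all genes 23.0%, with 15.0% higher and 8.04% lower). From 1 month to adult 2 were called, both higher (all genes 44.8%, with 29.4% higher and 15.4% lower), a share below that of all genes. From 3 months to adult none was called by limma (all genes 3.44%, with 1.61% higher and 1.82% lower), while 2 had an unadjusted p under 0.05. The comparisons share groups of libraries.

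BOLL had 1.21 and 1.28 TPM at 1 month, 7.99, 52.4, 37.6 and 8.64 at 2 months, 118.8, 93.2, 98.7 and 81.7 at 3 months, and 52.5, 67.1 and 12.8 at 4 months. In adults it ran from 7.97 over a median of 31.4 to 61.8. The 3-month libraries were above all others, and every later library was above those of 1 month. BOLL rose from 2 to 3 months by 2.79 in log2 (SE 0.828, limma adjusted p = 0.0219) and from 1 month to adult by 3.65 (SE 0.727, adjusted p = 0.000538). The first call was lost without replicate 1 of 2 months, the only polyA library of that age (1.79, adjusted p = 0.578), and the second held in all settings tried (limma adjusted p from 1.82e-05 to 0.0119). The difference of 2.66 from 1 to 2 months (adjusted p = 0.0776) missed the threshold, and it was called without the preparation term (3.19, adjusted p = 0.00577) and without replicate 4 of 2 months (adjusted p = 0.0446). That of -1.80 from 3 months to adult (adjusted p = 0.0778) was called without adult replicate 6 (-2.01, limma adjusted p = 0.0486).

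The 24 spermatocyte markers summed to 339.6 and 368.9 TPM at 1 month, 1101, 3016, 2026 and 386.6 at 2 months, 8000 to 9523 at 3 months and 1681 to 7060 in adults. They were highest at 3 months, as BOLL was. At 4 months they summed to 3983, 5493 and 7376 TPM, beside 52.5, 67.1 and 12.8 TPM of BOLL, so the library with most markers had least BOLL. Among adults they were highest in replicate 3 (7060 TPM), with BOLL at 19.9 TPM. Adult replicate 6, the highest for BOLL at 61.8 TPM, had 6028 TPM of them. Their part in the age differences of BOLL was not tested.

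PTBP2 also had its highest libraries at 3 months, 61.7, 52.9, 53.9 and 56.8 TPM. It had 19.3 and 16.9 TPM at 1 month, 13.99, 28.8, 24.4 and 11.4 at 2 months, 43.4, 37.8 and 37.6 at 4 months and 11.99 to 46.1 in adults. The 3-month libraries were above all others. The spermatocyte markers given for BOLL were highest at the same age, and their part in the PTBP2 values was not tested. No comparison was called, the difference from 2 to 3 months being 1.23 (SE 0.506, limma adjusted p = 0.083). It was called with polyA libraries alone (1.93, adjusted p = 0.0152), without the preparation term (1.56, adjusted p = 0.00655) and without replicate 2 of 2 months (1.37, limma adjusted p = 0.049). Without replicate 1 of 2 months it was 0.18 (limma adjusted p = 0.943).

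MSI2, high in opossum spermatogonia and in somatic classes, had 27.4 and 29.1 TPM at 1 month, 88.1, 49.99, 59.9 and 55.7 at 2 months, 26.1 to 34.9 at 3 months, 40.1, 23.8 and 14.1 at 4 months and 26.8 to 46.7 in adults. All 2-month libraries were above all others. The Sertoli markers summed to 98.9 and 100.0 TPM at 1 month, 145.2 to 272.3 at 2 months and 107.6 to 150.0 at 3 months. The Leydig markers summed to 1025 and 1037, 980.4 to 1848 and 1082 to 1140 TPM at these ages, and the spermatogonia markers to 321.4 and 329.8, 717.2 to 839.6 and 728.3 to 982.8. Immune and peritubular or stromal cells also held MSI2. At these ages the immune markers summed to 87.0 and 89.7, 87.0 to 240.9 and 293.8 to 403.9 TPM. The peritubular or stromal markers summed to 2491 and 3443, 644.0 to 1646 and 494.3 to 658.9 TPM. The part of these lists in the MSI2 values was not tested. MSI2 rose by 1.37 in log2 from 1 to 2 months (SE 0.418, limma adjusted p = 0.0416), and its difference from 2 to 3 months was -1.22 (SE 0.367, adjusted p = 0.0234). Without replicate 1 of 2 months both calls were lost (1.00, adjusted p = 0.299, and -0.85, adjusted p = 0.550). The rise was also lost without replicate 3 of 2 months (limma adjusted p = 0.062), without either 1-month library (0.184 and 0.162) and with polyA libraries alone (1.61, limma adjusted p = 0.0841). The later difference was also lost without replicate 1 of 3 months (limma adjusted p = 0.055) and, at -0.96, without the preparation term.

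ELAVL4 had 4.41 and 6.01 TPM at 1 month, 20.9, 2.77, 3.46 and 10.5 at 2 months, 3.57, 5.99, 3.60 and 4.70 at 3 months, 8.22, 6.19 and 16.9 at 4 months and 1.55 to 9.68 in adults. The 2-month libraries scatter most: 2 lie above and 2 below the 3-month range. The fitted log2 difference from 2 to 3 months was -1.84 (SE 0.514, limma adjusted p = 0.0164). It was -0.58 without the preparation term (adjusted p = 0.451) and -1.56 without replicate 1 of 2 months (adjusted p = 0.415), so the call depends on both. The spermatogonia markers overlapped between these ages (717.2 to 839.6 and 728.3 to 982.8 TPM).

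ELAVL2 had 13.4 and 15.9 TPM at 1 month, 43.4, 19.4, 19.6 and 46.0 at 2 months, 23.5 to 29.3 at 3 months, 44.3, 41.8 and 28.7 at 4 months, and 12.2 to 58.6 with a median of 40.3 in adults. Every later library except adult replicate 2, the rRNA-depleted one at 12.2 TPM, was above both of 1 month. The spermatogonia markers, of the class where ELAVL2 is highest, summed to 321.4 and 329.8 TPM at 1 month, 717.2 to 839.6 at 2 months and 418.9 to 1470 in adults. The elongating spermatid markers summed to 35.8 and 37.97 TPM, 37.5 to 392.1 and 7697 to 27010 at the same ages. The part of either in the ELAVL2 values was not tested. The log2 differences from 1 month were 1.81 at 2 months (SE 0.541, limma adjusted p = 0.037) and 1.19 in adults (SE 0.418, adjusted p = 0.0259). The first was lost with polyA libraries alone (adjusted p = 0.176) and without replicate 1 of 2 months (0.0804). Both were lost without the preparation term (0.97 and 1.03) and without either 1-month library (limma adjusted p from 0.0972 to 0.187).

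MBNL1 had 3.72 and 3.56 TPM at 1 month, 3.39, 11.1, 14.1 and 8.94 at 2 months, 7.31 to 13.6 at 3 months and 26.7, 6.42 and 4.63 at 4 months. In adults it had 18.9, 14.1, 13.3 and 19.2 TPM in replicates 4 to 7 and 15.8 in replicate 2, but 1.79 and 1.30 in replicates 1 and 3. The 15 immune markers summed to 51.2 and 58.95 TPM in adult replicates 1 and 3 and to 225.0 to 874.3 in the other adults; the 12 round spermatid markers summed to 8.39 and 9.26 TPM at 1 month, 9.22 to 153.4 at 2 months, 1094 to 1455 at 3 months and 462.4 to 1978 in adults, with 462.4 and 1403 in adult replicates 1 and 3. The part of either list in the MBNL1 values was not tested. Adult replicates 1 and 3 and replicate 3 of 4 months stood apart in their whole profile, with median correlations of 0.834, 0.879 and 0.837 to the other polyA libraries of 3 months and older, against 0.929 to 0.960 for the rest. MBNL1 was not called in any comparison, its difference from 1 month to adult being 0.93 (SE 0.760, limma adjusted p = 0.311). Without those 3 libraries, a setting chosen after seeing the data, it was 1.74 (adjusted p = 0.00285), and the difference from 3 months to adult went from -0.31 to 0.51 (adjusted p = 0.356).

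**Figure D4:**
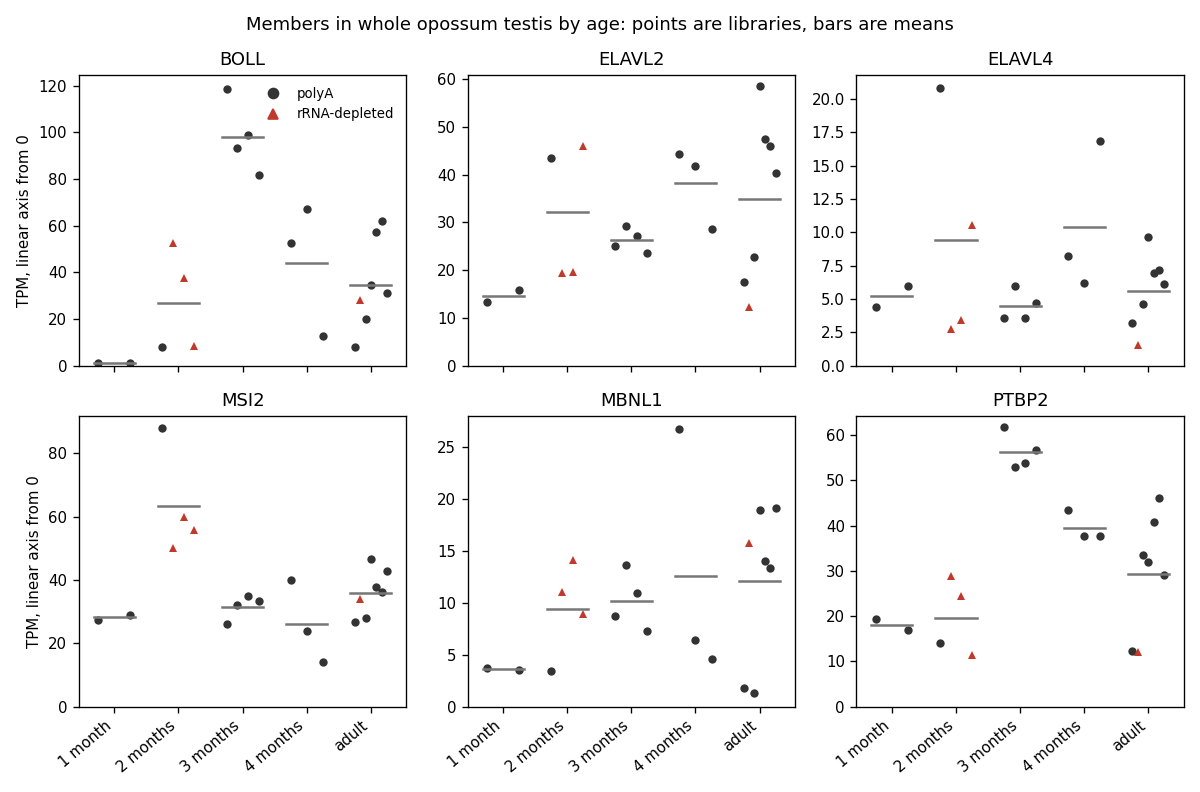
TPM of the 6 tested members in whole opossum testis at 1, 2, 3 and 4 months and in adults, on linear axes from 0; circles are polyA and triangles rRNA-depleted libraries, bars are group means. BOLL and PTBP2 are highest in the 4 libraries of 3 months and MSI2 in the 4 of 2 months, and MBNL1 is at 1.79 and 1.30 TPM in 2 of 7 adults.

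Other RNA-binding proteins were read from a list of 82 genes (paralogs and partners of the members, poly(A), splicing, meiotic and decay factors), of which 60 matched between species. Their species differences were tested with edgeR's quasi-likelihood test. The list was chosen with earlier results of these data known, so its p-values are not those of an independent test. In spermatogonia 59 were tested, 14 higher and 20 lower in opossum (median log2 difference -0.16; -0.11 over all 7204 genes, of which 58.3% were called, 26.8% higher and 31.5% lower). In spermatocytes 16 were higher and 16 lower of 54 (median -0.10; 0.06 over all genes, 71.4% called, 36.3% higher and 35.1% lower). In round spermatids it was 17 and 14 of 54 (median 0.06; -0.26 over all genes, 69.3% called, 32.6% and 36.6%). In elongating spermatids it was 16 and 13 of 43 (median 0.92; 0.28 over all genes, 71.4% called, 38.0% and 33.4%).

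In spermatogonia the largest differences toward opossum were those of RBFOX1, NOVA1 and RBFOX3, splicing regulators best known from neurons. Of the 2 ELAV paralogs tested there, none was called higher and 1 was called lower in opossum. The Musashi paralog MSI1 was also called lower (edgeR log2 difference -1.19). RBFOX1 had 260.6 ± 82.4 CPM in opossum and 8.84 ± 3.38 in mouse (SD, n = 3 per species; edgeR log2 difference 4.55, SE 0.346, adjusted p = 1.16e-05). NOVA1 had 315.4 ± 59.5 and 11.2 ± 10.9 CPM and RBFOX3 25.2 ± 4.82 and 0.834 ± 1.44. The edgeR log2 difference of RBFOX3, 4.28, ran from 3.55 without mouse replicate 3 to 8.26 without mouse replicate 1 (edgeR adjusted p = 0.00139 and 0.000857). The largest differences toward mouse were those of LIN28A, an inhibitor of let-7 processing, at 0.00 in all opossum libraries and 33.2 ± 31.95 CPM in mouse, of ZFP36L1, a decay factor of AU-rich messages, at 1.82 ± 1.90 and 61.2 ± 27.0, and of NANOS1, a repressor of translation, at 1.76 ± 0.507 and 38.4 ± 6.07. When 1 library was left out, the edgeR log2 difference ran from -7.21 to -4.51 for ZFP36L1 and from 4.16 to 5.51 for NOVA1.

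MBNL3, a paralog of MBNL1, was higher in opossum round spermatids too, at 84.4 ± 25.2 CPM against 0.375 ± 0.197 in mouse (edgeR adjusted p = 2.6e-06). Its difference in spermatocytes, 9.21 ± 4.96 against 0.1495 ± 0.195 CPM, was lost with the unnamed clusters counted (log2 -0.032, edgeR adjusted p = 0.978) and with a minimum of 500 UMIs (0.22, adjusted p = 0.868). NOVA1 was also higher in opossum spermatocytes (237.9 ± 39.3 against 2.61 ± 2.31 CPM) and round spermatids (90.96 ± 41.9 against 1.55 ± 0.385). STAU2, which binds double-stranded RNA in transport granules, was higher in opossum spermatocytes (549.3 ± 99.7 against 1.26 ± 0.532 CPM), round spermatids (301.1 ± 115.7 against 5.53 ± 4.33) and elongating spermatids (477.5 ± 175.2 against 3.30 ± 0.808). In elongating spermatids FXR2 (36.2 ± 12.6 against 0.201 ± 0.291) and CELF1 (46.5 ± 22.8 against 0.342 ± 0.1204) were higher as well.

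IGF2BP3, a paralog of IGF2BP1, was lower in opossum round spermatids (0.765 ± 0.262 against 85.6 ± 2.54 CPM) and elongating spermatids (0.314 ± 0.432 against 279.4 ± 36.5). LARP1, which binds terminal oligopyrimidine messages, was lower in the same classes (2.25 ± 1.55 against 93.0 ± 27.8 and 1.98 ± 2.80 against 185.0 ± 29.7). PAIP2B was lower in elongating spermatids, and ESRP1, a splicing regulator of epithelia, and CIRBP, a cold-inducible protein, in spermatocytes (0.409 ± 0.358 against 11.9 ± 4.68 and 21.3 ± 2.55 against 280.2 ± 39.6 CPM). YBX3, a paralog of YBX2, was lower in opossum spermatocytes and round spermatids, where its mouse SD (1766 and 1322 CPM) was above its mouse mean (1264 and 893.1 CPM). Without mouse replicate 3 its log2 difference in round spermatids went from -5.22 to -2.73.

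Over age 60 genes of the list were tested with limma. From 1 to 2 months 2 rose and none fell (all genes 11.1% called): FXR2 (log2 difference 4.47, SE 1.07, adjusted p = 0.0108) and CPEB3, a paralog of CPEB1 (2.40, SE 0.681, limma adjusted p = 0.0292). Both calls were lost without either 1-month library and without replicate 1 of 2 months (limma adjusted p from 0.0545 to 0.170), and 14 of the 60 had an unadjusted p under 0.05. From 2 to 3 months 6 rose, headed by SAMD4A (4.39), MEIOC, which sustains meiotic prophase (4.25), and ADAD1 (3.84), and 3 fell, MBNL3 (-1.83), HNRNPA2B1 (-1.30) and LIN28B (-1.15), while 23.0% of all genes were called. Without replicate 1 of 2 months no gene of the list was called in this comparison, and the differences were 1.98 for MEIOC, 1.99 for ADAD1, 2.97 for SAMD4A and -0.98 for MBNL3 (limma adjusted p = 0.686, 0.545, 0.261 and 0.508). From 1 month to adult 15 rose and 11 fell, a share near the 44.8% called over all genes, led by SAMD4A (6.23), MEIOC (5.38) and FXR2 (4.92) and by RBFOX2 (-3.05), PAIP2B (-2.37) and CIRBP (-1.92); without either 1-month library 16 genes were called. The difference of PAIP2B ran from -3.05 to -1.68 when 1 library was left out. From 3 months to adult (all genes 3.44% called) KHDRBS3 alone was called, as lower (-1.34, limma adjusted p = 0.0266), and its call was lost without any one of the 3-month libraries or adult replicates 4 or 7 (limma adjusted p from 0.051 to 0.104). The medians of the list were 0.44, 0.35, 0.39 and -0.43 in this order, beside 0.39, 0.24, 0.59 and -0.20 over all genes.

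In the mouse genome (GRCm39) ELAVL4 lies on chromosome 4 at 110060810 to 110209142, minus strand, and MBNL1 on chromosome 3 at 60380102 to 60537183, plus strand. In the deposited opossum tables, whose build is not given in the sources used here, ELAVL4 lies on chromosome 2 at 4961284 to 5120395, minus strand, MBNL1 on chromosome 7 at 249567777 to 249755342, minus strand, and YBX2 on an unplaced scaffold.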

How the data were processed

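In the single-cell files the authors deposited estimated counts of UMIs, most of them not whole numbers; Cell Ranger 6.0.1 is named in the submitters' processing notes, and the step that made the counts fractional is not given in the sources used here. The bulk tables hold, per the file headers, coverage (a signal per gene), FPKM and TPM as the authors computed them; HISAT2 2.2.1, SAMtools 1.12 and StringTie 2.1.4 are named in the submitters' processing notes. Bulk depth was 2.90 to 7.12 aligned gigabases per library, computed from the deposited coverage and FPKM.

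Cells needed 1000 UMIs and 500 genes, and the 8% with the highest Scrublet scores per library were removed (scanpy 1.11.5). Clustering of each species used 2000 variable genes without the members, 30 principal components, 8 neighbours per library and Leiden resolution 1 (leidenalg 0.10.2). A cluster took the class with the highest marker score if at least 3 markers passed 1.5-fold and 5 CPM and markers of other classes did not outnumber its own among the 10 leading genes. Estimated counts were summed per class and library with at least 20 cells. Log2 differences between species add 1 CPM to both means; the combined SD is the root of the summed variances of log2(CPM + 1). Estimated counts, rounded, entered edgeR 4.0.16 (TMM, quasi-likelihood, Benjamini-Hochberg). limma 3.58.1 with a trend was fitted to log2(TPM + 1) of all 20 libraries. On simulated data the bulk test recovered 7 of 100 genes changed 2-fold and 60 of 100 changed 4-fold for adult against 1 month (19300 genes), and edgeR 62 and 100 of 100 for spermatocytes (7988 genes). Recovery here needed the adjusted p alone. The edgeR simulation gave every gene the same spread and changed only well-counted genes, so recovery may be lower for genes that vary more or have fewer counts. The bulk simulation changed only genes of higher level and smaller spread, so its recovery may also be lower for other genes. The members and lists were chosen with earlier results of these data known. All 10 members are named, and of the list the 3 called genes with the largest log2 difference in each direction per comparison. Mouse positions are from GENCODE vM39.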

Additional observations from a re-analysis of the deposited data

Results flagged for a closer look

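Among the 8 members found in both species, there were 3 cases of opposite moves between neighbouring germ-cell classes. In these every library of one species moved one way and every library of the other the opposite way. The differences were not tested, and the genes had been chosen with these levels known. The share of all matched genes that move so was not computed, so the count cannot be called high or low. The MBNL1 and ELAVL4 cases involve spermatocytes, a class that holds mid and late clusters in mouse and early and late ones in opossum. MBNL1 went down from spermatogonia to spermatocytes in mouse (mean log2 change -2.63, to 0.283 CPM or less) and up in opossum (3.13), a difference of 5.76. ELAVL4 went up from spermatocytes to round spermatids in mouse (1.21) and down in opossum (-2.43), a difference of -3.64; mouse levels there are 0.358 to 4.29 CPM. ELAVL2 went down from round to elongating spermatids in mouse (-0.71, at 2.49 CPM or less) and up in opossum (1.14), a difference of 1.85. Each library's changes add 1 CPM. Among 21 groups of bulk libraries looked at for a sample far from the others, IGF2BP1 at 3 months had 0.0521 TPM in replicate 4 and 0 in the other 3 libraries; chance flags about 1 in 20 such groups.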

How the results depend on the processing

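Limits of these data include the low opossum marker numbers, the different steps held by the spermatocyte classes, and 2 months replicate 1, the only polyA library of its age. Another is that species and gene annotation cannot be told apart in any species difference, levels near 0 included. Of 352 values of the species differences of members, 317 moved by less than their SD, 33 moved by more, and 2 turned from a difference larger than its SD, both ELAVL2 in spermatocytes (-0.48 and -0.90, as given). Differences smaller than their SD also changed sign in some settings: BOLL in spermatogonia (-0.26, up to 0.20), BOLL and YBX2 in elongating spermatids (-0.15, up to 0.90, and -0.47, up to 0.37) and IGF2BP1 in spermatocytes (0.18, down to -1.67). The count of members without overlap was 6 to 7, 6 to 7, 6 to 7 and 5 to 6 when 1 library was left out. Leaving out a library can only keep or raise this count, so these ranges do not show how stable it is. With Leiden resolution 2 the count was 3 in elongating spermatids. MBNL3 in spermatocytes turned to -0.032 with the unnamed clusters counted. The DESeq2 fit gave no adjusted p for YBX3 in round spermatids. Species counts over all genes stayed within 1.5 times in all 15 alternatives per class.

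Of 360 values for members over age, 315 kept direction and call. With polyA libraries alone 1091 genes were called from 1 to 2 months, and 5156 without the preparation term, against 2142. From 3 months to adult 340 were called with a pseudocount of 0.1, 433 without the filter on low values and 1792 without the 3 libraries that stood apart (chosen after seeing the data), against 663. Leaving out 1 library gave 774 to 2289 genes from 1 to 2 months, 141 to 4705 from 2 to 3 months, 129 to 1052 from 3 months to adult and 5603 to 9924 from 1 month to adult. The counts moved by more than 1.5 times without 2 months replicate 1 (1045 from 1 to 2 months and 141 from 2 to 3 months), without either 1-month library (855 and 774 from 1 to 2 months, 5703 and 5603 from 1 month to adult) and, from 3 months to adult, without any one 3-month library (129 to 336) or adult replicates 3 (1052), 4 (285) or 7 (389). MBNL1 turned to -0.019 (FPKM) and -0.079 (polyA) from 1 to 2 months; from 3 months to adult it ran from -0.53 to 0.052 when 1 library was left out, and was 0.51 without the 3 libraries that stood apart. PTBP2 turned to -0.35 with polyA libraries from 1 to 2 months. ELAVL4 from 1 month to adult turned to -0.0050 with FPKM and -0.024 without the preparation term.

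Groups share replicate numbers, and the deviations of same-numbered bulk libraries had correlations from -0.192 to 0.269. Bulk pairs of different numbers were not correlated for comparison, so this cannot show whether the numbers pair samples. With a replicate block 1006, 2804, 998 and 6145 genes were called from 1 to 2 months, 2 to 3 months, 3 months to adult and 1 month to adult. Under the block MBNL1 turned to -0.23 from 1 to 2 months and ELAVL4 to -0.092 from 1 month to adult. Of the members only BOLL from 1 month to adult was called under the block. In the species fits the block gave 4190, 5565, 5554 and 3962 genes from spermatogonia to elongating spermatids, against 4198, 5613, 5556 and 4119.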
